A study of Mus musculus with 7 samples.

Results

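The genes described here are 49 regulators of pre-mRNA splicing: the SR proteins, the heterogeneous nuclear ribonucleoproteins (hnRNPs) and 18 further factors that choose splice sites. They were taken from the 35727 genes of the deposited table as the protein-coding genes with an Srsf or Hnrnp symbol, plus Tra2a, Tra2b, Srrm1, Srrm2, Ptbp1, Ptbp2, Ptbp3, Mbnl1, Mbnl2, Mbnl3, Celf1, Celf2, Rbfox2, Esrp1, Qk, U2af1, U2af2 and Sf3b1. Of the 49, 47 had enough counts to be tested, and 2, Esrp1 and Srsf12, did not. The libraries were polyA RNA-seq of sarcoma cells sorted by a red fluorescent protein (RFP) from tumours that transplanted cell lines formed in mice. Both groups started from mesenchymal stem cells of female C57/Bl6 mice without p53. The 4 libraries of one group came from the line transduced to overexpress Ccne1 (cyclin E1) from a retrovirus, and the 3 of the other from the line made in the same way with Vgll3, a cofactor of TEAD transcription factors. Each model is 1 in-house line passaged 2 times through female wild-type mice of that strain and then transplanted again, which means that effects of the transduced gene and of the line cannot be told apart, and separate mice per library are not stated in the labels.

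SR proteins carry a domain rich in arginine and serine and mostly bind exonic enhancers, where they help the spliceosome recognise a nearby splice site. Most hnRNPs bind introns or exonic silencers and often oppose that choice, so the balance of the 2 families sets many alternative exons. MBNL, CELF, RBFOX, QK, PTB and ESRP proteins are present in different amounts in different tissues; MBNL and RBFOX proteins promote the adult muscle pattern, PTBP1 holds back neuronal exons and ESRP1 drives epithelial exons. SF3B1 and the U2AF dimer belong to the machinery that reads the branch point and the 3′ splice site.

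Library totals ranged from 21725890 to 53610300 counts, and values below are CPM, counts scaled to a common library total after TMM normalisation, in which a count of 3 equals 0.0577 to 0.136 CPM. Vgll3 was higher in its own group (37.9, 54.3, 54.5 and 56.2 CPM in Ccne1 replicates 1 to 4, 285, 255 and 216 CPM in Vgll3 replicates 1 to 3, 2.31 on the log2 scale), whereas Ccne1 did not separate the groups (12.7 ± 5.61 and 14.9 ± 2.16 CPM, mean ± SD), so the groups are named by their labels. Trp53 had 66.4 ± 2.69 and 70.7 ± 4.32 CPM; which exons the knockout removes is not given in the sources used here, so this checks nothing. The least typical library was Vgll3 replicate 3, whose Pearson r across genes with its 2 partners was 0.959 and 0.963, while the remaining within-group pairs gave 0.980 to 0.988. The mesenchymal markers Col1a1, Col1a2, Col3a1 and Vim were at 3167 CPM or more in every library, and Pdgfra, Pdgfrb and Prrx1 at 157 to 1096 CPM. Thy1, on the same list, had only 0.763 to 9.42 CPM in Ccne1 replicates 1 to 4 and 0.378 to 2.54 CPM in Vgll3 replicates 1 to 3. Of the 8 mesenchymal markers 4 were called higher (Col1a1, Col1a2, Col3a1 and Pdgfrb) and 3 lower (Pdgfra, Vim and Prrx1). Epithelial markers summed to 2.07 to 4.95 CPM in Ccne1 replicates 1 to 4 and 0.151 to 1.00 CPM in Vgll3 replicates 1 to 3, with 1 of 1 tested called lower (Krt8) and Krt5 and Cldn7 at 0. Leukocyte and lymphocyte markers summed to 1.93 to 5.005 and 4.01 to 11.2 CPM (0 of 5 tested called), myeloid markers to 8.25 to 18.0 and 7.46 to 16.3 CPM (0 of 7), and endothelial markers to 52.1 to 139 and 34.9 to 234 CPM (0 of 8). Skeletal muscle markers summed to 8.55 to 11.01 and 7.67 to 20.5 CPM, with 1 of 3 tested called higher (Des) and Myod1 and Myog at 0. Erythroid markers summed to 5.73 to 10.3 and 0.189 to 2.21 CPM (2 of 3 called lower), and dissociation stress genes to 8938 to 11523 and 10956 to 13954 CPM (3 of 10 called higher, 2 lower). Proliferation markers summed to 552 to 815 CPM in Ccne1 replicates 1 to 4 and 1089 to 1249 CPM in Vgll3 replicates 1 to 3, and 10 of 10 were called higher; their part in the results below was not tested. In such bulk samples, fewer cells of a type and less RNA per cell cannot be told apart.

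The calls were spread unevenly over the role groups, and these groups were chosen with earlier results of these data known. No difference between the role groups was tested. Of the 47 tested, 27 were higher and 8 lower in the Vgll3-labelled libraries at an edgeR adjusted p under 0.05, and 12 were not called. Over all 13740 genes tested, 51.9% were called, 25.1% higher and 26.8% lower. Among the splicing regulators the shares were 57.4% and 17.0%. Their median level was 195 CPM, against 21.4 CPM over all genes tested, and its part in these shares was not tested. The differences were small: only Mbnl3 and Mbnl1 passed 2-fold (4.26% of the regulators, against 16.7% of all genes), 9 passed 1.5-fold (19.1%, against 29.7%), and the median absolute log2 fold change of called genes was 0.44 for the regulators and 0.67 for all genes. The median log2 fold change was 0.29 over the 47 and 0.01 over all genes. SR, SR-related and hnRNP genes supplied most of the higher calls (8 of 10, 2 of 4 and 12 of 20 tested), with 1 lower call among them, Hnrnph2. Of the 3 Ptbp genes 2 rose and 1 fell, as did 2 and 1 of the 3 genes of 3′ splice site recognition. The cell-type regulators went mostly the other way, with 5 of 7 tested lower and 1 higher. A further list of cell-type splicing regulators, described below, did not, with 2 of 9 tested higher and 0 lower. The 2 groups of libraries did not overlap for the same numbers, 27 higher and 8 lower (55.7% of all genes did not overlap, 26.8% higher and 29.0% lower).

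**Figure D1:**
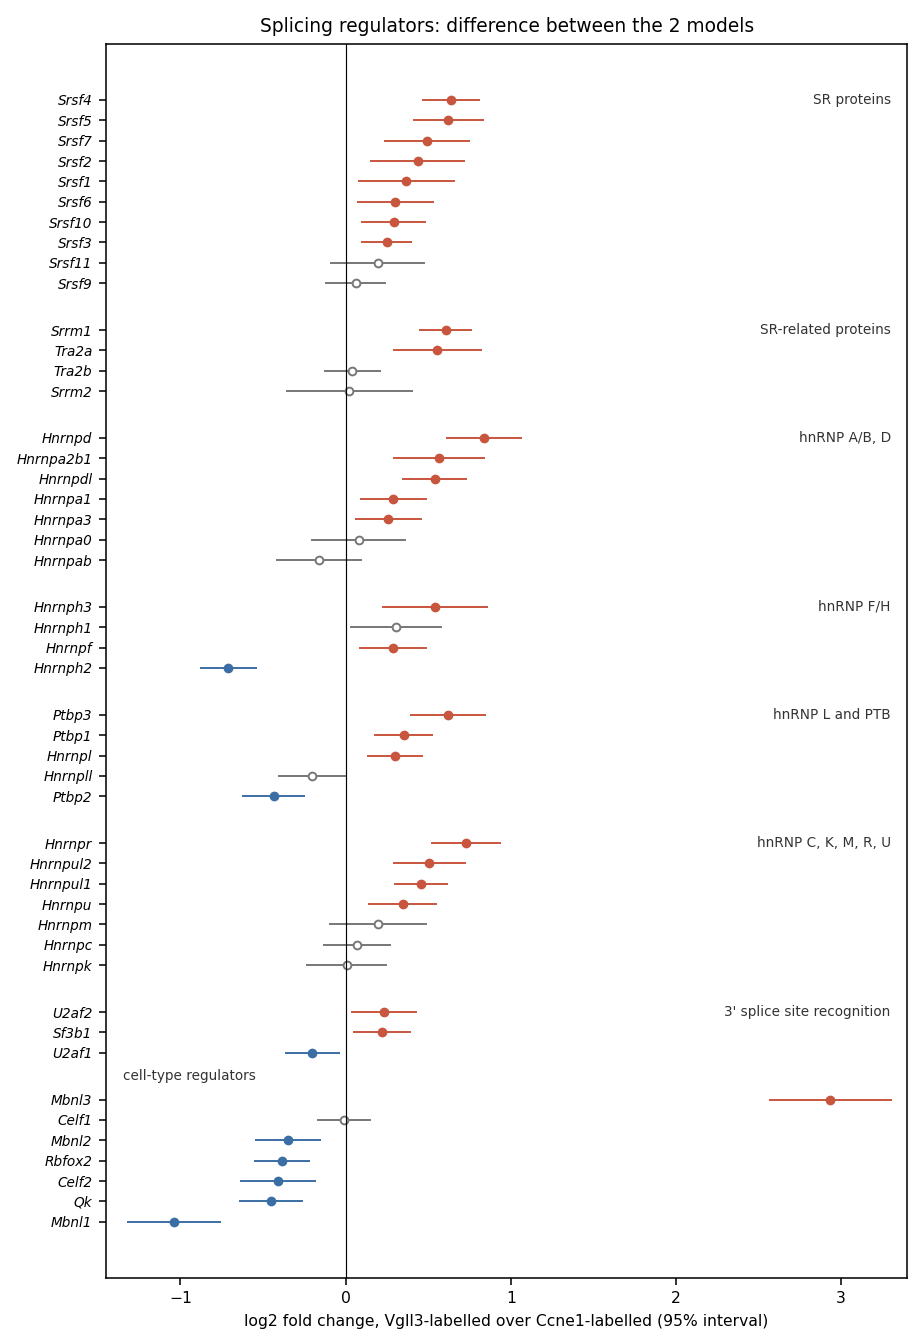
Log2 fold change (Vgll3-labelled over Ccne1-labelled) of the 47 tested splicing regulators with 95% intervals, grouped by role; filled points passed an edgeR adjusted p of 0.05 (red higher, blue lower) and open points did not. The SR and most hnRNP genes lie to the right of 0 and at most at 0.84, Mbnl3 lies at 2.93, and Mbnl1, Qk, Celf2, Rbfox2 and Mbnl2 lie to the left.

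Among the SR proteins, 8 of 10 tested rose, 0 fell, and the median log2 fold change was 0.34. Srsf4 (SRp75, the longest classical SR protein; ENSMUSG00000028911, mm10 chromosome 4, 131873617 to 131901706) had 59.3, 59.4, 52.4 and 51.9 CPM in Ccne1 replicates 1 to 4 and 89.2, 87.8 and 83.4 CPM in Vgll3 replicates 1 to 3. It rose 1.56-fold (0.64 on the log2 scale with an SE of 0.08, adjusted p = 0.000166 by edgeR). All 3 Vgll3-labelled values lay above all 4 Ccne1-labelled values, and within each group they stayed close together.

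Srsf5 (SRp40, chromosome 12, 80945504 to 80950507), which promotes inclusion of an exon of the kinase PKC beta, had 128, 129.5, 122 and 134 CPM in Ccne1 replicates 1 to 4 and 179.9, 184 and 228 CPM in Vgll3 replicates 1 to 3 (0.62 on the log2 scale with an SE of 0.09, adjusted p = 0.00054 by edgeR). Its highest value was in Vgll3 replicate 3. Srsf7 (9G8), an SR protein with a zinc knuckle that also takes part in mRNA export, had 56.6, 53.4, 59.9 and 70.2 and 73.4, 89.2 and 91.0 CPM in the same order (0.49 on the log2 scale, adjusted p = 0.00536 by edgeR); the groups lay next to each other without overlap, since Ccne1 replicate 4 came close to Vgll3 replicate 1.

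Srsf1 (SF2/ASF), known as an oncoprotein, had the highest mean CPM of the SR genes in the Ccne1-labelled libraries and was level with Srsf2 in the Vgll3-labelled ones (262 and 263 CPM). It had 209, 159, 209 and 235 and 253, 289.9 and 244 CPM, a 1.29-fold rise (0.37 on the log2 scale with an SE of 0.13, adjusted p = 0.0374 by edgeR). Ccne1 replicate 2 was its lowest library. The other raised SR genes were Srsf2 (SC35; 0.44 on the log2 scale, adjusted p = 0.0163 by edgeR), Srsf6 (0.30, adjusted p = 0.0326 by edgeR), Srsf10 (0.29, adjusted p = 0.0172 by edgeR) and Srsf3 (0.25, adjusted p = 0.0114 by edgeR). Srsf9 had a log2 fold change of 0.06 (95% interval −0.12 to 0.24), and Srsf11 one of 0.19 (−0.09 to 0.48). Srsf11 had 148, 156 and 213 CPM in Vgll3 replicates 1 to 3, the highest of them in replicate 3. Srsf12 had 0 counts in every library. Leaving out 1 library ended 4 of these calls, and the Srsf3 call ended without the low-count filter (adjusted p = 0.0539 by edgeR). The call for Srsf1 was lost on leaving out any of Ccne1 replicates 1 and 3 and Vgll3 replicates 1 and 2 (adjusted p 0.0628 to 0.144 by edgeR), that for Srsf6 when replicate 2 or 3 of either group was (0.0663 to 0.0909), and those for Srsf2 (0.0676) and Srsf10 (0.0841) when Vgll3 replicate 2 was. Srsf2 shares 460 and 288 exonic bases with Mettl23 and Mfsd11 on the opposite strand, and strand use in the counting is not given. Over all libraries these 2 genes had means of 7.83 and 39.8 CPM, against 224 CPM for Srsf2. Their log2 fold changes were −0.77 and −1.04, and their part in the Srsf2 counts was not tested.

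The 4 SR-related genes divided evenly, 2 higher and 2 not called. Srrm1, a coactivator that bridges SR proteins and the core machinery, had 141, 148, 136 and 134 CPM in Ccne1 replicates 1 to 4 and 219.6, 201 and 217 CPM in Vgll3 replicates 1 to 3 (0.61 on the log2 scale with an SE of 0.07, adjusted p = 0.00012 by edgeR). Tra2a, which binds GAA-rich exonic enhancers, had 76.0, 65.2, 77.5 and 88.5 and 99.8, 110.4 and 129 CPM (0.56 on the log2 scale with an SE of 0.12, adjusted p = 0.00372 by edgeR). Both were higher in 3 of 3 Vgll3-labelled libraries. Tra2b, its paralog with a similar binding site, had a log2 fold change of 0.04 (95% interval −0.13 to 0.21). Srrm2, a scaffold of nuclear speckles, had 316, 317, 296 and 347 CPM in Ccne1 replicates 1 to 4 and 273, 267 and 433 CPM in Vgll3 replicates 1 to 3. The library that decides its direction is Vgll3 replicate 3: with it the log2 fold change was 0.02 (95% interval −0.36 to 0.40), and without it Srrm2 was called lower at −0.23 (adjusted p = 0.0358 by edgeR).

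hnRNPs of the A/B and D types, which bind AG-rich and AU-rich RNA and are among the most abundant nuclear proteins, gave 5 higher calls of 7 tested and 0 lower. Hnrnpd (AUF1, which also binds AU-rich mRNA elements; ENSMUSG00000000568, chromosome 5, 99955935 to 99978938) had 214, 164, 172 and 188 CPM in Ccne1 replicates 1 to 4 and 326, 349 and 314 CPM in Vgll3 replicates 1 to 3. Its 1.79-fold rise was the largest among the genes with an Srsf or Hnrnp symbol (0.84 on the log2 scale with an SE of 0.10, adjusted p = 0.000162 by edgeR). Hnrnpdl, its paralog on the same chromosome (start 100033577), had 143, 139, 138 and 152 and 184, 213 and 227 CPM (0.54 on the log2 scale with an SE of 0.08, adjusted p = 0.00078 by edgeR). Both genes were higher in 3 of 3 Vgll3-labelled libraries, but Hnrnpd was lowest and Hnrnpdl highest in replicate 3.

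Hnrnpa2b1, whose 2 proteins differ by a short exon, had 581, 425, 457 and 550.0 and 769.6, 787 and 680.4 CPM (0.57 on the log2 scale with an SE of 0.12, adjusted p = 0.00376 by edgeR). Its Ccne1-labelled libraries were uneven, with replicates 1 and 4 above 2 and 3. Hnrnpa1, the best-studied antagonist of SRSF1, had 882, 850.1, 828 and 918 and 1056, 1168 and 965 CPM (0.29 on the log2 scale, adjusted p = 0.0203 by edgeR), and Hnrnpa3 had a log2 fold change of 0.26 (adjusted p = 0.0334 by edgeR). The Hnrnpa1 call was lost when Ccne1 replicate 3 or Vgll3 replicate 2 was left out (adjusted p 0.0627 to 0.101 by edgeR) and the Hnrnpa3 call when any of Ccne1 replicates 2, 3 and 4 and Vgll3 replicates 1 and 2 was (0.0708 to 0.111). Without the low-count filter both calls also ended (0.0599 and 0.0968). Hnrnpa0 (0.08, 95% interval −0.20 to 0.36) and Hnrnpab (−0.16, −0.42 to 0.09) were not called. Hnrnpa1 has processed copies in the genome among which reads can be split; 2 of them in the table stood at no more than 0.268 and 3.97 CPM.

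The hnRNP F/H group, which binds runs of G, held the 1 hnRNP gene that fell. Hnrnph2 (ENSMUSG00000045427, chromosome X, 134601179 to 134607060) had 137, 129, 122 and 143 CPM in Ccne1 replicates 1 to 4 and 82.8, 82.1 and 78.6 CPM in Vgll3 replicates 1 to 3. It was 1.63-fold lower (−0.71 on the log2 scale with an SE of 0.07, adjusted p = 8.78e-05 by edgeR), and its Vgll3-labelled values spanned less than 5 CPM. Its near relative Hnrnph1 had 359, 287, 289 and 356 and 348, 397 and 453 CPM and was not called (0.31 on the log2 scale, adjusted p = 0.0595 by edgeR). Hnrnph1 was called higher without Ccne1 replicate 1 or Vgll3 replicate 1 (adjusted p 0.028 to 0.0492 by edgeR). The same held with RLE scaling, upper quartile scaling and DESeq2. Hnrnph3, the tested hnRNP gene with the lowest CPM, shares 115 exonic bases with Rufy2 on the opposite strand, which has a like level; Hnrnph3 had 15.1, 11.7, 12.9 and 13.5 and 16.5, 18.1 and 23.4 CPM (0.54 on the log2 scale with an SE of 0.14, adjusted p = 0.0104 by edgeR). Hnrnpf, the most abundant of the 4 by CPM, had 529.6, 526, 502 and 542 and 693, 668 and 561 CPM (0.29 on the log2 scale, adjusted p = 0.0222 by edgeR), a call that was lost when Ccne1 replicate 3, Vgll3 replicate 1 or Vgll3 replicate 2 was left out (0.066 to 0.0886) and without the low-count filter (0.0635). So 2 of the 4 rose, 1 fell and 1 was not called.

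In the PTB and hnRNP L group, which binds pyrimidine- and CA-rich RNA, Ptbp1, Ptbp3 and Hnrnpl rose, Ptbp2 fell and Hnrnpll was not called. Ptbp1, a repressor of neuronal and muscle exons, had 388, 354, 374 and 377 CPM in Ccne1 replicates 1 to 4 and 449.6, 465 and 515 CPM in Vgll3 replicates 1 to 3 (0.35 on the log2 scale with an SE of 0.08, adjusted p = 0.00407 by edgeR). Ptbp2 (the neuronal paralog nPTB, chromosome 3, 119718742 to 119784466), whose mRNA PTBP1 sends to decay by skipping of one exon, had 119, 121, 110.3 and 129.6 and 88.7, 82.1 and 95.6 CPM, 1.35-fold lower (−0.43 on the log2 scale with an SE of 0.08, adjusted p = 0.002 by edgeR). Ptbp3, the paralog first known from blood cells, had 129.8, 145, 136 and 138 and 235, 219 and 177 CPM (0.62 on the log2 scale with an SE of 0.10, adjusted p = 0.000884 by edgeR). None of these 3 overlapped between the groups. Hnrnpl had 252, 226, 251 and 257 and 295, 299.8 and 316 CPM (0.30 on the log2 scale, adjusted p = 0.00733 by edgeR), higher in 3 of 3 Vgll3-labelled libraries. Its paralog Hnrnpll, a regulator of exons in activated lymphocytes, was not called (−0.20 on the log2 scale, adjusted p = 0.0898 by edgeR), but was called lower without Ccne1 replicate 2 (log2 fold change −0.25, adjusted p = 0.0404 by edgeR).

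Among hnRNP C, K, M, R and the U-type genes, 4 of 7 tested rose and 0 fell. Hnrnpr (chromosome 4, 136310942 to 136359447) had 109.7, 107, 103 and 107 CPM in Ccne1 replicates 1 to 4 and 190.3, 191 and 150.3 CPM in Vgll3 replicates 1 to 3, a 1.66-fold rise (0.73 on the log2 scale with an SE of 0.09, adjusted p = 0.000224 by edgeR). Replicate 3 was the lowest of its 3 Vgll3-labelled values and still above every Ccne1-labelled one. The 3 genes of the hnRNP U type (SAF-A and its relatives, which bind RNA and chromatin) rose together: Hnrnpul2 at 0.51 (adjusted p = 0.00192 by edgeR), Hnrnpul1 at 0.46 (adjusted p = 0.000726 by edgeR) and Hnrnpu at 0.35 (adjusted p = 0.0103 by edgeR) on the log2 scale. Hnrnpul2 had 208, 162, 186 and 185 and 260.0, 284 and 247 CPM. Hnrnpul1 had 264, 248, 255 and 230.3 and 348, 345 and 333 CPM. Both were higher in 3 of 3 Vgll3-labelled libraries. Hnrnpk, which by mean CPM over all libraries was barely above Hnrnpu and in the Vgll3-labelled group below it (677 against 764 CPM), had 624, 686, 685 and 701 and 757, 704 and 569.5 CPM, and its log2 fold change of 0.01 had a 95% interval of −0.23 to 0.24. Its lowest value was in Vgll3 replicate 3. Hnrnpc (0.07, 95% interval −0.13 to 0.27) and Hnrnpm (0.20, −0.09 to 0.49) were not called, though without Vgll3 replicate 3 Hnrnpm was called higher (log2 fold change 0.33, adjusted p = 0.0315 by edgeR). Hnrnpm shares 1169 exonic bases with March2 on the same strand, which stood at 19.6 CPM on average.

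All 3 genes of branch point and 3′ splice site recognition were called, each with a small difference and each with a call that leaving out 1 library ended. Sf3b1, the branch point subunit mutated in several cancers, had 279, 316, 302 and 309 CPM in Ccne1 replicates 1 to 4 and 371, 351 and 333 CPM in Vgll3 replicates 1 to 3 (0.22 on the log2 scale, adjusted p = 0.0325 by edgeR). U2af2, the subunit that binds the polypyrimidine tract, had 197, 169.9, 164 and 197 and 211, 218 and 211 CPM (0.23 on the log2 scale, adjusted p = 0.0474 by edgeR). U2af1, the subunit that reads the terminal AG, had 79.8, 70.4, 70.0 and 75.9 and 63.1, 66.8 and 63.3 CPM (−0.20 on the log2 scale, adjusted p = 0.0414 by edgeR). The 2 partners of the dimer therefore moved in opposite directions by these calls. Each call ended in 5 of the 7 fits that left out 1 library: for Sf3b1 those lacking one of Ccne1 replicates 1, 3 and 4 and Vgll3 replicates 1 and 2 (adjusted p 0.0615 to 0.114 by edgeR), for U2af2 those lacking Ccne1 replicate 2 or 3 or any Vgll3 library (0.0571 to 0.139), and for U2af1 those lacking Ccne1 replicate 1 or 4 or any Vgll3 library (0.0584 to 0.0971). All 3 calls also ended without the low-count filter (0.117, 0.110 and 0.0860), and that for U2af1 with RLE scaling, upper quartile scaling, library totals alone and DESeq2.

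The cell-type regulators held the largest differences, and they lay within the MBNL family. MBNL proteins bind YGCY motifs, shift exons from the fetal to the adult pattern, and are sequestered by expanded repeats in myotonic dystrophy. Mbnl3 (ENSMUSG00000036109, chromosome X, 51117269 to 51206532), the member known from fetal tissue and from restraint of muscle differentiation, had 3.91, 3.70, 3.87 and 4.76 CPM in Ccne1 replicates 1 to 4 and 33.1, 36.2 and 23.7 CPM in Vgll3 replicates 1 to 3. It rose 7.64-fold (2.93 on the log2 scale with an SE of 0.16, adjusted p = 5.36e-06 by edgeR), with the lowest Vgll3-labelled value in replicate 3. Mbnl1 (ENSMUSG00000027763, chromosome 3, 60472830 to 60629750), the main adult muscle member, had 409.6, 484, 529 and 596 and 233, 255 and 248 CPM. It was 2.06-fold lower (−1.04 on the log2 scale with an SE of 0.12, adjusted p = 0.000166 by edgeR); the Ccne1-labelled libraries were spread and the Vgll3-labelled ones were not. Mbnl2, the member best known from brain, had 154, 142, 144 and 154 and 116, 105 and 130.0 CPM (−0.35 on the log2 scale with an SE of 0.09, adjusted p = 0.00813 by edgeR). In this family 2 members fell and Mbnl3 rose, and Mbnl3 reached 31.0 ± 6.50 CPM (mean ± SD, n = 3) against 245 ± 11.5 CPM for Mbnl1, levels that are not per length.

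**Figure D2:**
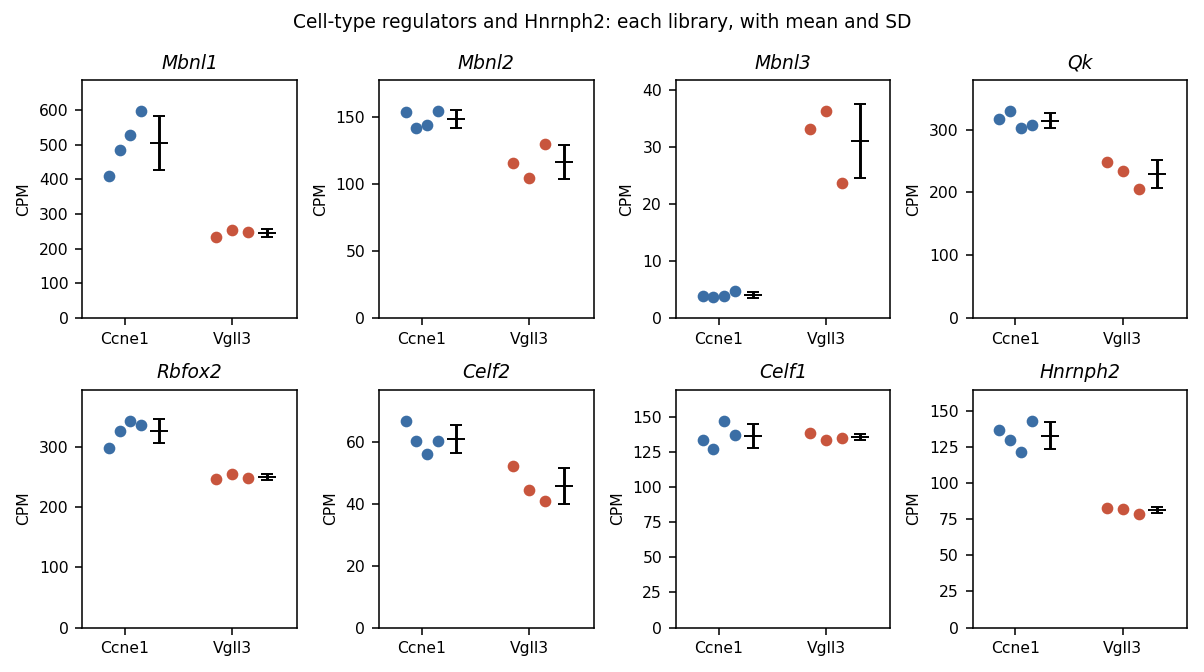
CPM of 7 cell-type regulators and Hnrnph2 in each library (points; blue Ccne1-labelled, n = 4, red Vgll3-labelled, n = 3), with the mean and SD beside them; each panel starts at 0 and has its own scale. Mbnl3 stays below 5 CPM in the 4 Ccne1-labelled libraries and above 23 CPM in the 3 Vgll3-labelled ones, while the groups overlap for Celf1.

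Qk (quaking, a STAR-family protein that regulates splicing in glia and muscle and the formation of circular RNAs) had 317, 329, 302 and 307 CPM in Ccne1 replicates 1 to 4 and 249, 234 and 205 CPM in Vgll3 replicates 1 to 3 (−0.45 on the log2 scale with an SE of 0.08, adjusted p = 0.00182 by edgeR). Rbfox2, the UGCAUG-binding family member of most mesenchymal cells, had 299, 327, 344 and 337 and 247, 255 and 249 CPM (−0.38 on the log2 scale with an SE of 0.07, adjusted p = 0.00211 by edgeR). Celf2, one of the CELF proteins that oppose MBNL on several exons, had 66.8, 60.3, 56.1 and 60.3 and 52.0, 44.4 and 40.8 CPM (−0.41 on the log2 scale with an SE of 0.10, adjusted p = 0.00733 by edgeR). For all 3, every Vgll3-labelled library lay below every Ccne1-labelled one. Celf1, the paralog, had 134, 127, 147 and 137 and 138, 134 and 135 CPM and a log2 fold change of −0.01 with a 95% interval of −0.16 to 0.15. Esrp1, the epithelial regulator, had 3 counts in Vgll3 replicate 3 and 0 in the other 6 libraries, at or under the floor of 3 counts in both groups, so no fold is given.

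**Figure D3:**
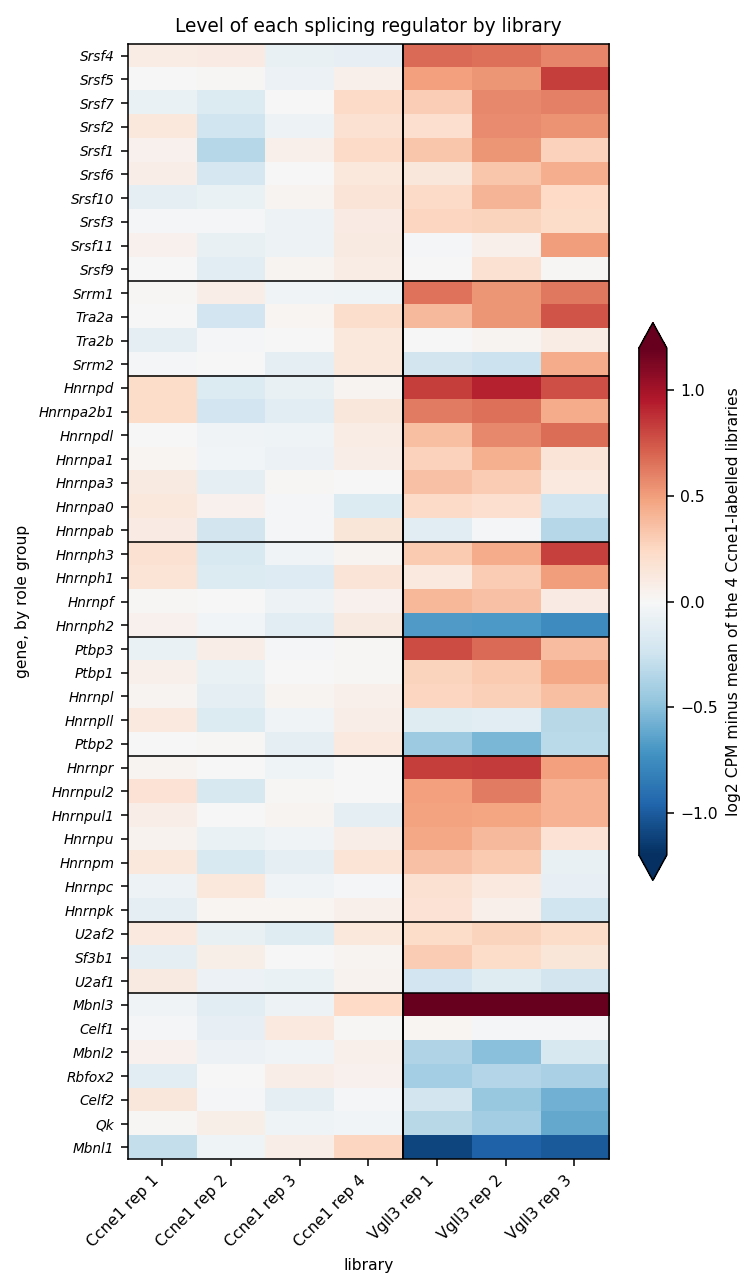
Level of each of the 47 tested regulators in each library, as log2 CPM minus the mean of the 4 Ccne1-labelled libraries (red above, blue below; the colour scale ends at 1.2 either way, which Mbnl3 passes), in the order of the role groups. The SR and hnRNP rows are mostly red in all 3 Vgll3-labelled columns, the Mbnl1, Mbnl2, Qk, Rbfox2 and Celf2 rows are blue, and Srrm2 and Srsf11 have their deepest red in Vgll3 replicate 3.

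Because 2 genes of the same library share its scaling, 16 ratios between related regulators were compared by a two-sided exact permutation test over the 35 ways to assign 4 and 3 libraries, whose smallest possible p is 0.0286. A change of such a ratio between groups does not depend on gene length. The Mbnl3/Mbnl1 count ratio was 0.00961, 0.00766, 0.00734 and 0.00801 in Ccne1 replicates 1 to 4 and 0.142, 0.142 and 0.0956 in Vgll3 replicates 1 to 3, 15.3-fold higher (exact permutation p = 0.0286). The Ptbp2/Ptbp1 ratio was 0.307, 0.342, 0.295 and 0.344 and 0.197, 0.177 and 0.186, 1.72-fold lower (exact permutation p = 0.0286), and the Hnrnph2/Hnrnph1 ratio 0.382, 0.452, 0.421 and 0.401 and 0.238, 0.207 and 0.174, 2.02-fold lower (exact permutation p = 0.0286). Each of these ratios kept its 2 groups apart by more than the spread within them. For Mbnl3/Mbnl1 and Ptbp2/Ptbp1, and for U2af2/U2af1 below, both genes alone already kept the groups apart, in opposite directions. Separation of these ratios, and with it the smallest possible p, was therefore fixed by the single genes and adds no further evidence.

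The U2af2/U2af1 ratio was closely grouped within each model: 2.46, 2.41, 2.34 and 2.60 against 3.34, 3.27 and 3.33, 1.35-fold higher (exact permutation p = 0.0286), although the folds of both genes alone were small. Tra2a/Tra2b was 1.43-fold higher, Hnrnpll/Hnrnpl 1.41-fold lower and Srrm2/Srrm1 1.54-fold lower, each at an exact permutation p of 0.0286. In the last of these the Vgll3-labelled values were 1.24, 1.32 and 2.00, so replicate 3 sat near the Ccne1-labelled 2.25, 2.15, 2.18 and 2.58. After Benjamini-Hochberg adjustment over the 16 ratios these 7 had an adjusted p of 0.0653 and none passed 0.05. Of the other 9, 4 had an exact permutation p of 0.0571 (Mbnl2/Mbnl1, Celf2/Celf1, Hnrnpa2b1/Hnrnpa1 and Srsf9/Srsf1) and 5 a larger one, up to 0.629 for Hnrnpul2/Hnrnpul1.

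**Figure D4:**
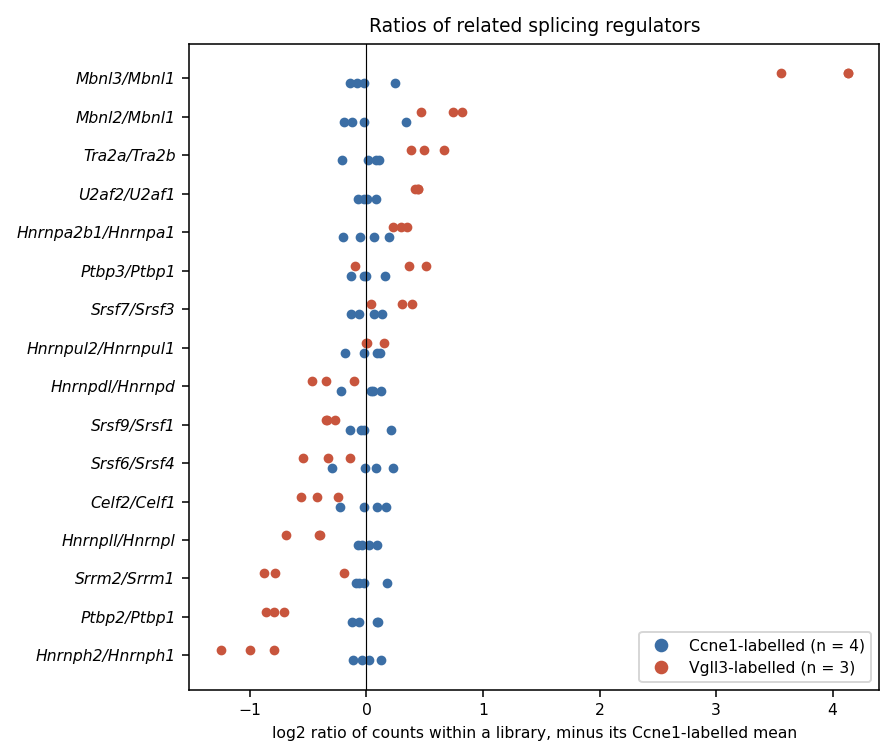
Log2 ratio of the counts of 2 related regulators within each library, minus the mean of the 4 Ccne1-labelled libraries, for 16 ratios (blue Ccne1-labelled, red Vgll3-labelled). Mbnl3/Mbnl1 lies 3.94 log2 units to the right on average, Hnrnph2/Hnrnph1 and Ptbp2/Ptbp1 lie to the left, and U2af2/U2af1 shows 3 nearly equal Vgll3-labelled points.

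Summed over its members, each family took a small share of a library. The SR genes made up 0.125, 0.106, 0.117 and 0.132% of the counts in Ccne1 replicates 1 to 4 and 0.141, 0.1604 and 0.171% in Vgll3 replicates 1 to 3. The 20 Hnrnp genes made up 0.789, 0.685, 0.713 and 0.771% and 0.8995, 0.929 and 0.838%. The cell-type regulators made up 0.1400, 0.143, 0.151 and 0.1596% and 0.105, 0.107 and 0.108%. SR and hnRNP sums were thus higher in every Vgll3-labelled library and the cell-type sum was lower, and these sums get no test. In the Ccne1-labelled group, replicate 2 was lowest for the SR, the hnRNP and the proliferation marker sum (552 CPM for the markers). The proliferation and hnRNP sums were highest in replicate 1 (815 CPM and 0.789%) and the SR sum in replicate 4 (0.132%). In the Vgll3-labelled group, replicate 3 had the highest proliferation sum (1249 CPM) and the highest SR sum but the lowest hnRNP sum. A link between these sums was not tested.

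Levels of different genes can be compared only per length. As TPM, from counts over the exonic length of the annotation, Hnrnpa1 (921 ± 59.4 and 1159 ± 98.9), Hnrnpab (961 ± 123 and 883 ± 82.8), Hnrnpa0 (791 ± 59.99 and 859 ± 126) and Hnrnpf (575 ± 27.4 and 722 ± 57.6) led in both groups (mean ± SD, n = 4 and n = 3). Hnrnpab and Hnrnpa1 did not differ beyond their spread in the Ccne1-labelled libraries, nor did Hnrnpab and Hnrnpa0 in the Vgll3-labelled ones. Srsf2 (219.6 ± 33.0 and 307 ± 48.9) was the highest SR gene. This order depends on the length used. With the median length of coding transcripts, an alternative chosen after seeing the data, Hnrnpk moved from rank 6 to rank 1. Hnrnpa1 moved from rank 1 to 2, Hnrnpab from 2 to 5 and Hnrnpa0 from 3 to 9, while Hnrnpf stayed at 4.

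Libraries of 1 group were not interchangeable for these genes. Ccne1 replicate 4 was the highest of its group for 26 of the 47 tested regulators (24.4% of all genes had their highest value there), and Ccne1 replicate 2 was the lowest for 22 (25.2%). Vgll3 replicate 3 was the lowest of its group for 24 and the highest for 14 (39.4% and 39.6% of all genes). Relative to the mean of Vgll3 replicates 1 and 2, replicate 3 had more Srrm2 (log2 ratio 0.68), Srsf11 (0.48), Hnrnph3 (0.44) and Srsf5 (0.32) and less Mbnl3 (−0.55), Hnrnpa0 (−0.46), Hnrnpm (−0.42), Ptbp3 (−0.36) and Hnrnpk (−0.36). In its group the same library also had the highest sum of endothelial markers (234 CPM, of which Pecam1 gave 184, against 34.9 and 67.1 CPM), leukocyte markers (11.2 against 4.01 and 4.99 CPM), myeloid markers (16.3 against 7.46 and 8.43 CPM) and skeletal muscle markers (20.5 against 7.91 and 7.67 CPM). The part of these markers in the differences was not tested. The regulators varied less than other genes within a group, with a median coefficient of variation of 6.54% and 9.53% against 9.70% and 12.4% over all genes tested, which have lower counts (median 21.4 CPM, against 195 CPM for the regulators).

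Some of the regulators share their direction with the genes around them. Chromosome 4, whose 829 tested genes had a median log2 fold change of 0.44, carries Srsf4, Srsf10, Srrm1, Hnrnpr and Ptbp3, all 5 of them higher. The first 4 lie between positions 131873617 and 136359447 of it, where the tested genes within 5 Mb of each had medians of 0.42 (Srsf4, 139 genes), 0.32 (Srsf10, 121), 0.32 (Srrm1, 123) and 0.30 (Hnrnpr, 131). Around Ptbp3 the median was 0.56. On chromosome 6, where the median was 0.39, Hnrnpa2b1 and Tra2a rose among neighbours with medians of 0.45 and 0.43. For Tra2a this depends on the window, since its neighbours within 1 Mb had a median of −0.13.

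Other regulators went against their surroundings, and some of those that fell went along with them. Chromosome 17 had a median of −0.33 and chromosome 11 one of −0.30, yet Srsf3 and Srsf7 on the former and Srsf1 and Srsf2 on the latter rose (neighbour medians −0.37, −0.23, −0.29 and −0.39). Hnrnpll, which lies next to Srsf7, was not called and had a log2 fold change of −0.20. The neighbour medians within 5 Mb were −0.06 for Hnrnpd and −0.06 for Mbnl3, which both rose. They were −0.16 for Mbnl1 and −0.19 for Hnrnph2, which both fell and so shared the sign of their neighbours. All of these medians were far smaller than the differences of the genes themselves. Within 1 Mb the neighbours of Mbnl1 had a median of 0.39. Mbnl2 and U2af1 fell among neighbours that were lower than the gene itself (−0.46 and −0.33), and Qk fell beside a neighbour median of −0.21. Celf2, Ptbp2 and Rbfox2 fell beside neighbour medians of 0.03, 0.02 and 0.02. Over the 47, 24 had the sign of their neighbours' median, and the correlation across genes was r = 0.27 (Spearman rho 0.37), a description only, since neighbours of nearby regulators are partly the same genes. Gene counts do not measure copy number, and its part in these values was not tested.

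**Figure D5:**
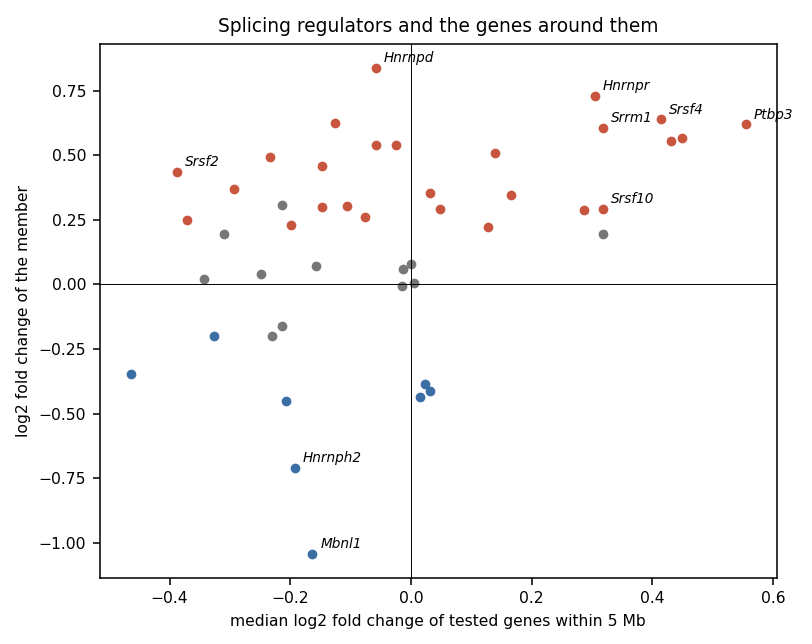
Log2 fold change of 46 tested regulators (Mbnl3, at 2.93, is left out for scale) against the median log2 fold change of the other tested genes within 5 Mb (red called higher, blue called lower, grey not called). Ptbp3, Srsf4, Srrm1 and Hnrnpr lie to the upper right with raised neighbours, while Srsf2 and Hnrnpd are raised beside neighbours at or below 0.

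Sequence around the starts was compared in the RefSeq promoter table (GRCm38.p6, which matches mm10), where 43 of the 49 genes had at least 1 window of 300 bases, 62 windows in all. Their median GC content was 65.7%, against 52.7% over all 32851 windows, with a median of 29 against 7 CG dinucleotides. The following stretches end at the base before an annotated start of the gene with the largest rise (Mbnl3), the largest fall (Mbnl1, its more upstream start of 2) and the largest rises among the genes with an Hnrnp symbol (Hnrnpd and Hnrnpr), and are shown so that these starts can be compared. They run 5′ to 3′ on the gene's strand, and capitals mark a match to a motif searched. The Hnrnpd stretch is cut where an exon of another gene begins. The Mbnl3 stretch lies inside the gene bounds given above, so it is not upstream of the whole gene.
Mbnl3, chrX:51205991-51206240, minus strand: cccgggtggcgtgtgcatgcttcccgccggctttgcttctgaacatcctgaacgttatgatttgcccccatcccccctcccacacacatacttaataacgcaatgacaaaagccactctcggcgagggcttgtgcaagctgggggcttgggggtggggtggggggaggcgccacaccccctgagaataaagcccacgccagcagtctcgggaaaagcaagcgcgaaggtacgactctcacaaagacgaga
Mbnl1, chr3:60472580-60472829, plus strand: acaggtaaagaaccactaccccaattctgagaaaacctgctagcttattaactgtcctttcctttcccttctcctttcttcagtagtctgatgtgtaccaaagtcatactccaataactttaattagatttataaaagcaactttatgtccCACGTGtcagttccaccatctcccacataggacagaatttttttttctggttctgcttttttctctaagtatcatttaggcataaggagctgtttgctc
Hnrnpd, chr5:99978939-99979060, minus strand: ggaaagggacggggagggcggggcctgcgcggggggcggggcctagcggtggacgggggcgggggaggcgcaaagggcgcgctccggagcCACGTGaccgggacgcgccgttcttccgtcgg
Hnrnpr, chr4:136310692-136310941, plus strand: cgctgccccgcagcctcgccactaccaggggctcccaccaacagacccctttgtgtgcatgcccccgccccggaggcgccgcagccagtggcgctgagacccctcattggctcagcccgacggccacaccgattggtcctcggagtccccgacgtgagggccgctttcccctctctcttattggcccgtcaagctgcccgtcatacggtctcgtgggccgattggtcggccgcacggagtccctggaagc

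The Mbnl1 stretch has a GC content of 38.0%, against 59.2% for Mbnl3, 68.8% for Hnrnpr and 79.5% for the shorter Hnrnpd stretch. Mbnl1 and Hnrnpr each have 2 windows, so these values describe the starts shown and not the genes. Motifs were searched on both strands of all 300 bases as fixed letters. CATTCC, the core of the site bound by the TEAD partners of VGLL3, was in 2 of the 62 windows (3.23%, those of Celf2 and Hnrnpl), against 14.7% of all windows. CACGTG, the E-box bound by MYC among others, was in 7 (11.3%, against 7.15%): windows of Hnrnpa3, Hnrnpd, Hnrnpf, Hnrnph2, Hnrnpm, Mbnl1 and Ptbp1, of which 4 genes rose, 2 fell and 1 was not called. CCGGAAGT, an ETS site, was in 6 windows (9.68%, against 3.89%) of Hnrnpd, Hnrnpf, Srsf4, Srsf5 and Srsf11. The palindromic NRF1 site was in 2 (3.23%, against 0.971%), Srrm1 and Srsf11, and the E2F forms TTTCGCGC and TTTGGCGC were in none of the 62 (0.323% and 0.514% of all windows). A match is a run of letters and not a measured site, and the windows of the regulators are richer in G and C than the rest.

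SR and hnRNP genes are known to limit their own proteins through exons that bring an early stop codon and send the mRNA to nonsense-mediated decay. In the annotation, 31 of the 47 tested regulators (66.0%) had at least 1 transcript of that class, against 28.4% of the 12860 tested protein-coding genes, and the median number of annotated transcripts was 9 against 5. Among the 11 SR genes, 9 had one. The deposited counts are sums per gene, so productive and decaying transcripts of these genes are counted together and splicing itself was not measured.

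The other genes of the splicing pathway, taken from 7 lists, were called about as often as other genes. Of 95 tested, 34 rose and 16 fell (35.8% and 16.8%, together 52.6%, against 25.1%, 26.8% and 51.9% of all genes), with a median log2 fold change of 0.13. No difference between the lists, or between a list and other genes, was tested. Among SR protein kinases and import receptors, 2 of 10 rose and 2 fell: Tnpo3, the importer of phosphorylated SR proteins, from 97.7 ± 5.60 to 152 ± 11.3 CPM (0.64 on the log2 scale, adjusted p = 0.000182 by edgeR), and Srpk2, a cytoplasmic SR kinase, down from 72.9 ± 3.36 to 42.2 ± 4.81 CPM (−0.79, adjusted p = 0.000121 by edgeR). Of 17 Sm and snRNP protein genes 9 rose and 2 fell, led by Snrpd1 (46.2 ± 2.79 to 83.0 ± 11.8 CPM, 0.85 on the log2 scale, adjusted p = 0.000179 by edgeR) and, downward, Snrpb (−0.32, adjusted p = 0.0168 by edgeR). Of 10 SF3A, SF3B and branch point factors 4 rose and 1 fell, among them Sf3b6 (0.80, adjusted p = 0.000196 by edgeR) and Sf3b4 (−0.27, adjusted p = 0.00656 by edgeR).

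Of 23 genes of the tri-snRNP and catalytic core 5 rose and 9 fell (21.7% and 39.1%, against 25.1% and 26.8% of all genes), with a median of −0.14. Prpf38a, a factor of spliceosome activation, rose (0.49, adjusted p = 0.0035 by edgeR), and Dhx16, a helicase of the catalytic step, fell from 69.8 ± 2.65 to 47.8 ± 3.22 CPM (−0.54, adjusted p = 0.000302 by edgeR). Of 10 genes of nonsense-mediated decay 3 rose, led by Smg6 (0.42, adjusted p = 0.00298 by edgeR), and Smg8 fell from 19.3 ± 2.08 to 8.17 ± 0.918 CPM (−1.24, adjusted p = 6.93e-05 by edgeR). Of 16 other hnRNP-like genes 9 rose and 1, Taf15, fell (−0.28, adjusted p = 0.0168 by edgeR). Rbmx (hnRNP G, X-linked, with copies elsewhere in the genome) had 3.41, 2.85, 4.09 and 3.85 CPM in Ccne1 replicates 1 to 4 and 18.8, 20.5 and 17.2 CPM in Vgll3 replicates 1 to 3 (2.41 on the log2 scale with an SE of 0.14, adjusted p = 7.45e-06 by edgeR). Of 15 other cell-type splicing regulators only 9 had enough counts to be tested, and 2 rose and 0 fell; the larger rise was that of Rbm20, the titin splicing factor of muscle (0.182, 0.0577, 0.0619 and 0 and 12.4, 14.5 and 11.9 CPM, 7.49 on the log2 scale from few or no counts in the Ccne1-labelled libraries, adjusted p = 7.26e-06 by edgeR).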

How the data were processed

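The values deposited are estimated counts, 1 per Ensembl gene, for 7 polyA RNA-seq libraries, 4 Ccne1-labelled and 3 Vgll3-labelled, grouped by sample title. The authors made them with Salmon on mm10, per the submitters' processing notes; not given in the sources used here are its version, the annotation, the gene summing and the strand setting. All values were whole (0 needed rounding). Symbols came from GENCODE M21 (GRCm38, equal to mm10) for 35422 of 35727 genes. Testing used edgeR 4.0.16 in R 4.3.3 (filterByExpr, TMM scaling, glmQLFit with robust estimation, glmQLFTest on the group alone), with Benjamini-Hochberg adjustment over all 13740 genes at 0.05. Fold changes are Vgll3-labelled over Ccne1-labelled, and SE is the absolute log2 fold change over the square root of F. Log ratios of 2 genes used counts plus 0.5. Named in full were, per role group, up to 3 called genes in each direction and the highest by CPM, and per pathway list up to 1 called gene in each direction with the largest change. Hnrnph1, Rbfox2 and Mbnl2 were added after their values were seen, and Celf1 is also given in full outside this rule. The members and lists were chosen with earlier results of these data known. The biological coefficient of variation was 20.7%. The p-values rest on the spread among libraries, part of which may be technical. DESeq2 1.42.0, limma-voom (limma 3.58.1), other scalings, no filter, a replicate block and leaving out each library were alternatives. The test was checked on simulated counts in which far fewer genes changed than were called here. That check therefore does not cover scaling or false calls when so many genes differ.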

Additional observations from a re-analysis of the deposited data

How the results depend on the processing

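Under 14 alternatives, all 35 called regulators kept their direction, and 19 kept their call in each one (24 when the replicate block is left aside). Higher calls numbered 27 and lower calls 8; they were 28 and 7 with RLE scaling, with upper quartile scaling and with DESeq2, 27 and 7 with library totals alone, 21 and 7 without a low-count filter, and 27 and 8 with limma-voom. Leaving out 1 library gave 18 to 26 higher and 7 to 9 lower calls, fewest higher without Vgll3 replicate 2, and 26 and 8 without Vgll3 replicate 3. The median log2 fold change of the 47 stayed between 0.23 and 0.37, while upper quartile scaling moved that of all genes to 0.09. With the replicate block, 14 were higher and 6 lower, and of the other splicing pathway genes 8 were lower instead of 16. The replicate numbers gave no sign of pairing the libraries: the deviations of same-numbered libraries from their group means correlated at −0.15, −0.17 and −0.10, and no library correlated best with its own number. Leaving out 1 library put Srrm2, at 0.02 on the log2 scale with all 7, between −0.23 (without Vgll3 replicate 3) and 0.14, and the Hnrnpul2/Hnrnpul1 log2 ratio difference, at 0.05 with all 7, between −0.0076 (without Ccne1 replicate 2) and 0.091. With 6 libraries the exact test cannot reach 0.05, so ratios were then compared as values only. The number of regulators with the sign of their neighbours' median was 24 within 5 Mb, 28 within 1 Mb and 26 within 10 Mb.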
